A study of Homo sapiens with 12 samples.

Results

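The SRSF and HNRNP genes encode the serine/arginine-rich (SR) splicing factors and the heterogeneous nuclear ribonucleoproteins (hnRNPs), and their mRNA levels were followed in proliferating and senescent WI-38 fibroblasts. Members were taken by symbol: a protein-coding gene whose symbol is SRSF followed by digits, or HNRNP followed by capital letters and then digits or letters. The rule held for 36 annotated symbols, of which 34 (11 SRSF and 23 HNRNP genes) were found among the 57773 genes listed per library, 19404 of them protein-coding; the identifiers of HNRNPCL2 and SRSF8 were not matched, and both were not analysed here. Of the 34, 32 members (10 SRSF, 22 HNRNP) passed the filter on low counts. SRSF12 (0 to 14 counts per library) and HNRNPCL1 (0 to 10 counts per library) did not pass it and enter no test.

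WI-38 is a line of human diploid lung fibroblasts, here kept at population doublings 15 to 25. Bulk polyadenylated RNA was sequenced from 4 groups of 3 libraries each. All groups were transfected with 25 nM of a pool of siRNAs, and none was left untransfected. Proliferating cells received the non-targeting siCtrl and no etoposide, with DMSO as the vehicle of control conditions; the 3 senescent groups were cultured for 8 days in medium with etoposide at 50 µM, which causes DNA breaks through topoisomerase, and received siCtrl, siNTRK2 (against the mRNA of the receptor TrkB) or siBDNF (against the mRNA of its ligand). There was 1 pool per target and 1 cell line. The study describes its cell culture experiments in general as independent repeats that each held every group, but neither its methods nor the labels say this of these libraries in particular or tie replicate numbers to an experiment, so p-values measure the spread between these libraries.

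Library totals ran from 31567912 to 72328151 counts. LMNB1, a lamin lost in senescence, was lower in senescent than in proliferating siCtrl cells (log2 fold change -4.20), and CDKN1A, which encodes the cell cycle inhibitor p21, was higher (1.62). BDNF was lower with siBDNF (-1.79), and NTRK2 had 0 counts in each siNTRK2 library against 7, 15 and 10 counts in the siCtrl senescent libraries. BDNF measured 153 to 163 normalized CPM in proliferating and 157 to 169 CPM in siCtrl senescent libraries, and 203 to 206 CPM with siNTRK2. Fibroblast markers summed to between 32530 and 45390 normalized CPM in every library, and PTPRC, which marks blood cells, did not exceed 1.07 CPM. Low levels of other markers differed between proliferating and senescent libraries, and their part in the results was not tested. Epithelial markers (mostly KRT19) summed to 17.9 to 20.1 CPM in proliferating and 49.0 to 60.7 CPM in senescent siCtrl libraries, endothelial markers (mostly TEK) to 75.2 to 77.9 and 34.1 to 35.9 CPM, and blood markers to 0.271 to 0.342 and 1.8 to 2.23 CPM, while EPCAM, CDH5, CD3E and HBB each stayed under 1 CPM in every library.

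SR proteins bind exonic enhancers through RNA recognition motifs and recruit the splicing machinery through a domain rich in arginine and serine, which is phosphorylated by SRPK and CLK kinases. The hnRNPs package nascent transcripts, and many of them block splice sites or exons, so that the ratio of SR proteins to hnRNPs, SRSF1 to HNRNPA1 in the textbook case, sets the choice between competing splice sites. Several genes of both families limit their own output through poison exons or retained introns that send the transcript to nonsense-mediated decay, and splicing factor mRNAs are known to decline in ageing and senescent fibroblasts.

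RefSeq promoter windows (GRCh38.p14, 250 bases before to 50 after the transcript start) were held for 31 of the 34 members, 44 windows in all. They are shown for the members the comparisons turn on. These are HNRNPD and HNRNPDL with the largest falls in senescence, SRSF6 with the largest rise with siNTRK2 and SRSF10 with the largest with siBDNF. HNRNPH2 is shown too, and its level was not called in any comparison. Nor was that of HNRNPUL2, which is not shown. Capitals mark matches on either strand to the GC box GGGCGG, the CCAAT box CCAAT, the YY1 core ATGGCG, the E-box CACGTG and the palindrome CTCGCGAG.
HNRNPD (chr4:82373942-82374241, minus strand): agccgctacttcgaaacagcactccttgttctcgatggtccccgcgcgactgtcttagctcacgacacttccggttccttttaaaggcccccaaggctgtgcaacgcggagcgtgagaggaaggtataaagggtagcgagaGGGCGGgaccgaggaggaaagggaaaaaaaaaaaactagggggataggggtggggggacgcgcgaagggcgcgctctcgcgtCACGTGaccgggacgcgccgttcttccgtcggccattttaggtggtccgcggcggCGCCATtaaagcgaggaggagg
HNRNPDL (chr4:82430176-82430475, minus strand, 1 of its 2 windows): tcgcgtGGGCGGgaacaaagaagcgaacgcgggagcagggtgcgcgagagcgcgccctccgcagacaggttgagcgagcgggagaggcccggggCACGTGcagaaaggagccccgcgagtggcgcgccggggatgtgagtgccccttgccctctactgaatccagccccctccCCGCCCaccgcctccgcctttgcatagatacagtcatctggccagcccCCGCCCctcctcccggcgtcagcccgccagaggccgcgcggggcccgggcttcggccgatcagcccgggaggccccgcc
SRSF6 (chr20:43457646-43457945, plus strand): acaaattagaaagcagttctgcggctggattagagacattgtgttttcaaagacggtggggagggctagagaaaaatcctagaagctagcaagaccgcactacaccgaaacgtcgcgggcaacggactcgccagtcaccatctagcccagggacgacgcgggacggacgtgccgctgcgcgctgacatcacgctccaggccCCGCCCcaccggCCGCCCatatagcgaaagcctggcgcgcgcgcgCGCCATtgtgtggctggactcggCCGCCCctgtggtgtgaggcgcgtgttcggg
SRSF10 (chr1:23980278-23980577, minus strand): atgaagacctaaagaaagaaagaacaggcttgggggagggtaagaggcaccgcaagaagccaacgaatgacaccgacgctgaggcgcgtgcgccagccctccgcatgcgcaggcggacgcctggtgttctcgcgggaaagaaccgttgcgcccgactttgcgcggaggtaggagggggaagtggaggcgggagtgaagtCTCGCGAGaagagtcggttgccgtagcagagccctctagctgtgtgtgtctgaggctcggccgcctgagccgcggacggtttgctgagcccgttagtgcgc
HNRNPH2 (chrX:101407972-101408271, plus strand): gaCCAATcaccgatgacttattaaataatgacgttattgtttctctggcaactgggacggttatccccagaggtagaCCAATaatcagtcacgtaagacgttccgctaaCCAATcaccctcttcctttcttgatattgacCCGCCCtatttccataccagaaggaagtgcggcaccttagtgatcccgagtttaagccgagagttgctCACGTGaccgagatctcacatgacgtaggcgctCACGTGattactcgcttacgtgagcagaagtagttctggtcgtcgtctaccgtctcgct

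The HNRNPD window held a GC box, an E-box and a YY1 core, and the HNRNPDL window 3 GC boxes and an E-box. The SRSF6 window held 3 GC boxes and a YY1 core, and the SRSF10 window the CTCGCGAG palindrome alone. The HNRNPH2 window held 3 CCAAT boxes, 2 E-boxes and a GC box. A CCAAT box was found for 19 members, HNRNPUL2 among them. These also included HNRNPH1, HNRNPA3, SRSF3 and HNRNPDL (in its window not shown), which fell in senescence. Over all 44 windows, the GC box was present in 63.6% against 45.0% of all 35116 windows, the CCAAT box in 47.7% against 34.6%, the YY1 core in 31.8% against 10.7%, the E-box in 18.2% against 7.26%, and CTCGCGAG in 11.4% (HNRNPH3, HNRNPK, HNRNPUL1, SRSF4 and SRSF10) against 1.02%. The TATA box TATAAA (13.6% against 11.5%) and the ETS core CCGGAA (20.5% against 17.2%) were held at shares closer to those of all windows, and the E2F letters TTTCGCGC or TTTGGCGC were in 0 of 44 member windows and in 1.15% of all. The HNRNPD window also held a TATA box and an ETS core, which are not in capitals, and no other window shown held either. No motif's letters contain another's, both strands were searched, and these matches are descriptions of letters, not of bound sites. HNRNPD and HNRNPDL lie near each other on chromosome 4 (hg19, chr4:83273651-83295656 and chr4:83343718-83351615, both on the minus strand).

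In senescent against proliferating siCtrl cells, 30 of the 32 members tested fell and none rose (edgeR quasi-likelihood test, Benjamini-Hochberg adjusted p under 0.05), where 28.3% of all 21518 genes tested fell and 29.8% rose. DESeq2 called 29 lower and none higher, and 31 members, all lower, had an unadjusted p under 0.05. All 10 SRSF genes fell, with a median log2 fold change of -0.65, and 20 of 22 HNRNP genes fell, with a median of -0.85. Over all 32 members the median was -0.78, with a range of -1.76 to 0.039, beside 0.025 for all genes. At the threshold of the study, which also asks for an absolute log2 fold change over 1, 12 members (4 SRSF, 8 HNRNP) were lower, against 5.16% of all genes, and in a test against a minimum fold change of 1.2, 27 were called, against 37.5% of all genes in either direction. The summed level of the SRSF genes was 1166 ± 25.7 CPM (SD, n = 3) in proliferating and 664 ± 2.39 CPM in senescent cells, and that of the HNRNP genes was 5969 ± 87.9 and 3469 ± 58.0 CPM. In bulk RNA, fewer cells that carry a transcript and less transcript per cell cannot be told apart. Markers of dividing cells moved with the members: 11 of 12 proliferation genes fell (median -2.12, MKI67 -3.68). Their summed level was 601 to 617 CPM in proliferating and 226 to 229 CPM in senescent libraries. Of 9 fibroblast markers, 6 fell and 2 rose (median -0.49), with sums of 39170 to 40880 CPM in proliferating and 32530 to 36850 CPM in siCtrl senescent libraries. The part of either list in the result was not tested.

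**Figure D1:**
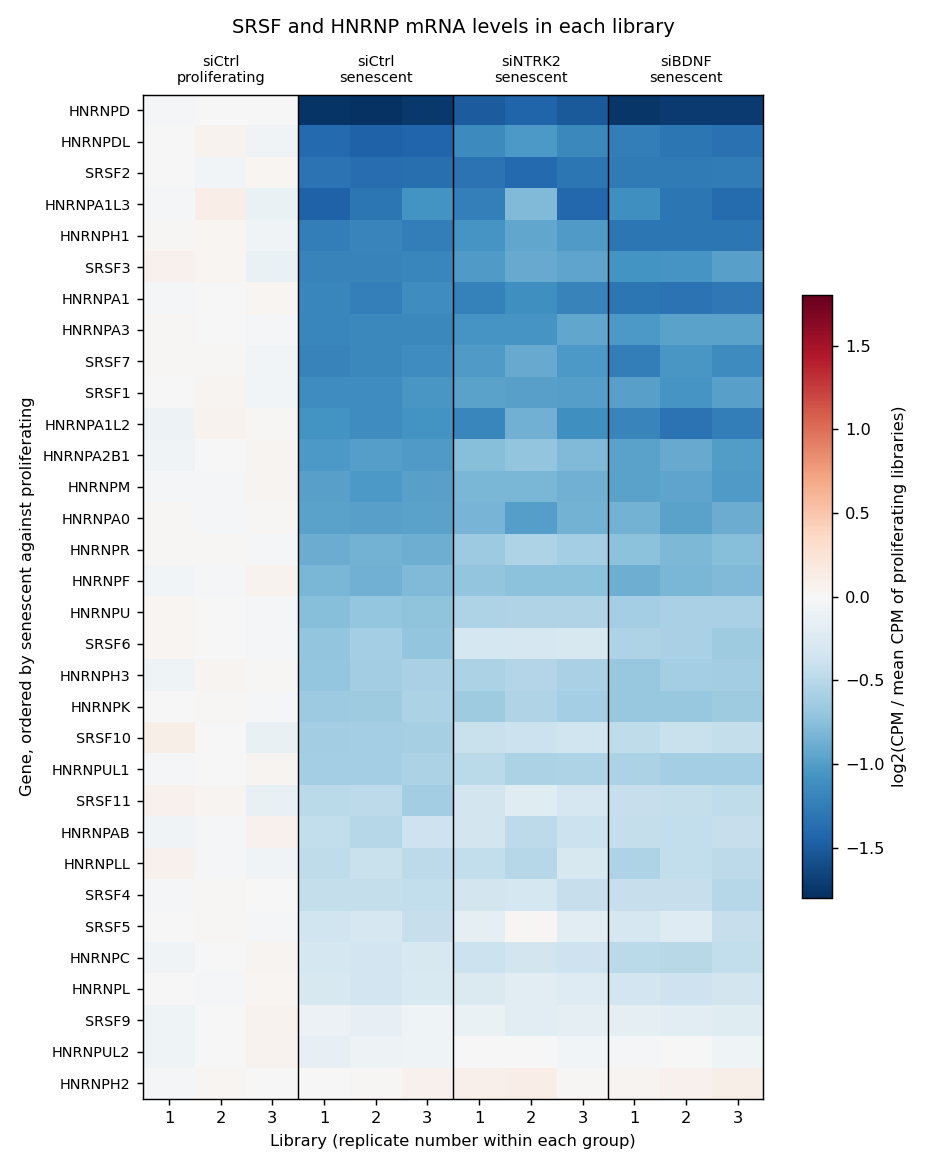
Level of each of the 32 tested SRSF and HNRNP genes (rows, ordered by the change in senescence) in each of the 12 libraries (columns), as log2 of normalized CPM over the mean CPM of the 3 proliferating libraries. The senescent columns are blue in nearly all rows, deepest for HNRNPD, near 0 for HNRNPH2, and paler in the siNTRK2 columns for rows such as SRSF6 and SRSF5.

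Among the SR proteins, SRSF2 (SC35), a marker of nuclear speckles, stood at 168, 162 and 172 normalized CPM in the 3 proliferating libraries and at 66.4, 64.3 and 65.0 CPM in the siCtrl senescent ones. Every senescent library lay far below every proliferating one, and the log2 fold change was -1.36 ± 0.046 SE, adjusted p = 3.16e-18. SRSF3, the smallest SR protein, which also takes part in mRNA export, went from 221, 216 and 194 CPM to 91.3, 91.4 and 93.5 CPM. The groups did not overlap, although proliferating replicate 3 lay below the other two, and the log2 fold change was -1.19 ± 0.0513 SE, adjusted p = 3.89e-16. SRSF1, the founding SR protein and an activator of proximal 5′ splice sites, measured 206, 216 and 201 CPM in proliferating and 95.4, 95.9 and 101 CPM in senescent cells. Its groups were likewise apart, with a log2 fold change of -1.09 ± 0.0452 SE, adjusted p = 1.74e-16. SRSF7, an export adaptor, was the remaining SRSF gene past the study's threshold (-1.16). The other SRSF genes fell by less, SRSF6 by 0.68 and SRSF10 by 0.62 on the log2 scale, down to SRSF9 (-0.11 ± 0.0454 SE, adjusted p = 0.0428). SRSF9 was the weakest of these calls: it was lost without proliferating replicate 2 or 3 (adjusted p = 0.0674 and 0.176) and without each senescent replicate in turn (0.0771, 0.114 and 0.0524).

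HNRNPD (AUF1), which binds AU-rich elements and takes part in mRNA decay, fell furthest of all members. Its level was 194, 199 and 198 CPM in the proliferating libraries and 58.1, 57.6 and 59.0 CPM in the senescent ones. Replicates lay close together in both groups, which were 3.38-fold apart (-1.76 ± 0.0444 SE, adjusted p = 1.14e-20). HNRNPDL, its paralogue, measured 148, 154 and 141 CPM before and 55.9, 54.0 and 54.6 CPM in senescence. Again no library of one group reached the other, with a log2 fold change of -1.43 ± 0.051 SE, adjusted p = 8.31e-18. HNRNPH1, which binds runs of G, stood at 233, 234 and 219.6 CPM in proliferating and at 96.7, 100.2 and 96.6 CPM in senescent cells. The groups were separate, with a log2 fold change of -1.23 ± 0.0456 SE, adjusted p = 2.04e-17.

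HNRNPA1, the classical repressor that opposes SRSF1, went from 906, 931 and 959 CPM to 413, 397 and 429 CPM. Senescent libraries all lay below the proliferating ones, at a log2 fold change of -1.17 ± 0.044 SE, adjusted p = 2.48e-17. The ratio of HNRNPA1 to SRSF1 CPM was 4.32 to 4.77 in proliferating and 4.14 to 4.33 in senescent libraries, ranges that overlapped. HNRNPA1L3, an HNRNPA1-like gene counted at far lower levels, measured 21.1, 23.1 and 19.6 CPM and then 7.77, 8.60 and 10.1 CPM. The groups were apart although its replicates scattered more widely, and the log2 fold change was -1.27 ± 0.118 SE, adjusted p = 1.1e-09. HNRNPA1L2 (-1.09), HNRNPA3 (-1.16) and HNRNPA2B1 (-1.01), also of the A/B group, complete the HNRNP genes past the study's threshold. Reads can be shared among these near-identical copies, so their separate counts are uncertain: HNRNPA1L2 stood at 9.83 to 11.9% of the HNRNPA1 level over all libraries, HNRNPA1L3 at 1.88 to 2.81%, and 53 pseudogenes of HNRNPA1 with a count at 14.1 to 20.2% in sum. HNRNPA1 together with all these copies measured 1154 to 1210 CPM in proliferating and 525 to 550 CPM in siCtrl senescent libraries (ranges over 3 libraries), which do not overlap.

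The members not called in senescence are named here after their values were seen. HNRNPH2, the paralogue of HNRNPH1, held 88.7, 93.3 and 91.5 CPM in proliferating and 91.7, 92.7 and 96.6 CPM in senescent libraries. These ranges overlapped, with a log2 fold change of 0.039 ± 0.0457 SE, adjusted p = 0.487. HNRNPUL2, a relative of HNRNPU, held 159, 168 and 176 CPM and 152, 158 and 159 CPM. Its senescent libraries lay just below the lowest proliferating one, and the difference missed the threshold (-0.10 ± 0.0453 SE, adjusted p = 0.0529). Both genes share exon bases with a readthrough gene on the same strand (RPL36A-HNRNPH2 over 15.8% of the exon bases of HNRNPH2, HNRNPUL2-BSCL2 over 44.3% of those of HNRNPUL2), and their counts are therefore uncertain. Other members with a large overlap were HNRNPA3 (53.6% with NFE2L2 on the opposite strand), SRSF9 (43.6% with GATC, opposite), SRSF1 (32.7% with an unnamed gene on the same strand) and SRSF2 (27.6% with MFSD11, opposite). The libraries were stranded, but the sources used here do not give the strand setting of the counting. How much these overlaps moved the counts was not tested.

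**Figure D2:**
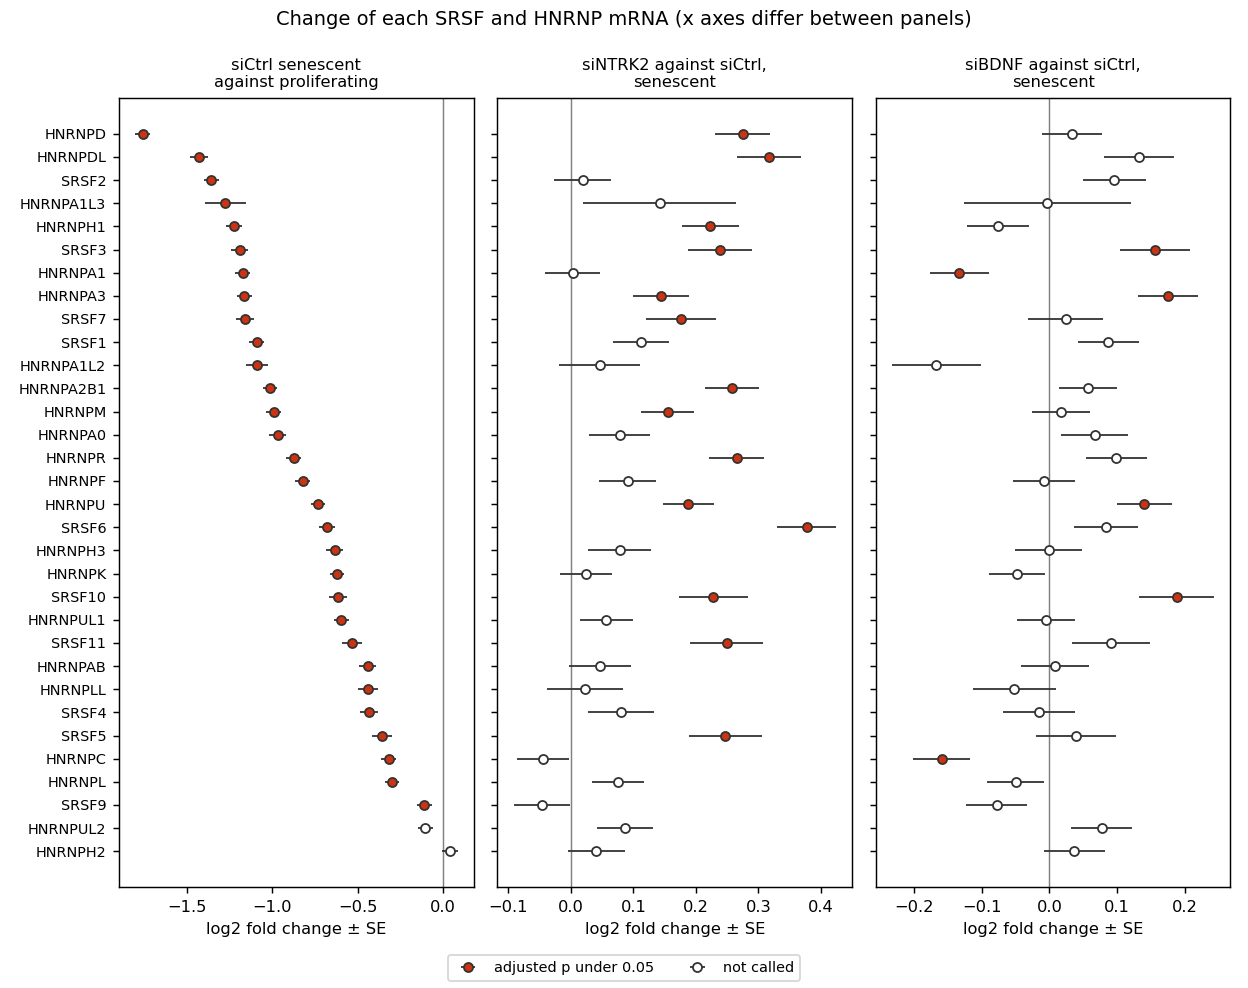
Log2 fold change ± SE (x axes, which differ between panels) of each of the 32 tested members (rows) in senescent against proliferating siCtrl cells, siNTRK2 against siCtrl and siBDNF against siCtrl, with filled points for an adjusted p under 0.05. Nearly all points lie left of 0 in senescence, 30 of 32 lie right of 0 with siNTRK2, and with siBDNF they lie on both sides.

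Levels can be compared between genes only per length, and here CPM were divided by the length of the canonical transcript in kilobases. On that scale HNRNPK, which binds C-rich sequence, led in proliferating cells with 253 ± 3.51 CPM per kb (SD, n = 3), and HNRNPA1 followed with 249 ± 7.17, a gap within their spread. HNRNPC, which binds uridine tracts, came next at 168 ± 6.55 and HNRNPA2B1 at 155 ± 5.45. In senescent siCtrl cells HNRNPK still led with 164 ± 5.45, now ahead of HNRNPC (135 ± 2.91) and HNRNPA1 (110 ± 4.23), beyond their spread. SRSF9 was the highest SRSF gene in both states, with 112 ± 5.54 CPM per kb in proliferating and 104 ± 2.15 in senescent cells. SRSF10, with 8.19 ± 0.677 and 5.35 ± 0.0338 CPM per kb, and HNRNPA1L3, with 11.1 ± 0.915 and 4.58 ± 0.603, were the lowest of the members tested. HNRNPD moved from rank 14 to rank 21 of the 34 members and HNRNPH2 from rank 20 to rank 11.

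Silencing NTRK2 asks what lowering the mRNA of the BDNF receptor does to senescent cells, where it stood at only 7 to 15 counts per library with siCtrl. With siNTRK2, 14 of the 32 members rose and none fell against siCtrl senescent cells, where 11.1% of all genes tested rose and 10.0% fell. DESeq2 likewise called 14 higher and none lower, and all 15 members with an unadjusted p under 0.05 were higher. The controls are the same libraries that stand for senescence in the comparison above, so the values of these comparisons are not independent. Of the 14, 6 were among the 10 SRSF genes (median 0.20) and 8 among the 22 HNRNP genes (median 0.083). The median over all members was 0.10 beside -0.002 for all genes, and 30 of 32 values were positive, HNRNPC and SRSF9 being negative. The changes were small, none past the study's threshold (0.957% of all genes) and none called against a minimum fold change of 1.2 (2.79% of all genes). The summed level of the SRSF genes was 740 ± 9.59 CPM (SD, n = 3), and that of the HNRNP genes 3693 ± 65.8 CPM.

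SRSF6 (SRp55), an SR protein that activates exons, rose most with siNTRK2. It measured 65.4, 70.4 and 65.8 CPM with siCtrl, 86.7, 87.4 and 87.9 CPM with siNTRK2 and 110.4, 107 and 105 CPM in proliferating cells. All siNTRK2 libraries lay close together above the siCtrl senescent ones and below the proliferating ones, at a log2 fold change of 0.38 ± 0.0469 SE, adjusted p = 2.11e-06 against siCtrl senescent cells, or 1.30-fold. HNRNPDL stood at 66.6, 72.3 and 66.1 CPM with siNTRK2. All were above the siCtrl senescent libraries (0.32 ± 0.051 SE, adjusted p = 6.35e-05). HNRNPD measured 69.6, 72.7 and 69.1 CPM with siNTRK2. Its groups were also apart (0.28 ± 0.0442 SE, adjusted p = 6.15e-05), and the siNTRK2 libraries remained far below the proliferating level of 194 to 199 CPM. HNRNPR, an RNA-binding protein closely related to SYNCRIP, stood at 81.9, 84.3 and 83.3 CPM with siCtrl and 97.1, 103 and 99.6 CPM with siNTRK2. No library of one group reached the other (0.27 ± 0.0445 SE, adjusted p = 0.000102).

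The other members that rose with siNTRK2 were HNRNPA2B1 (log2 fold change 0.26), SRSF11 (0.25), SRSF5 (0.25), SRSF3 (0.24), SRSF10 (0.23), HNRNPH1 (0.22), HNRNPU (0.19), SRSF7 (0.18), HNRNPM (0.15) and HNRNPA3 (0.14). SRSF1 measured 106, 106 and 104 CPM with siNTRK2, above each siCtrl senescent library, but was not called (0.11 ± 0.0451 SE, adjusted p = 0.0809). HNRNPA1 measured 403, 435 and 405 CPM and overlapped with siCtrl (0.003 ± 0.0436 SE, adjusted p = 0.971), its sign turning when siCtrl senescent replicate 2 (-0.024) or siNTRK2 replicate 2 (-0.033) was left out. SRSF2, among the members that fell furthest in senescence, stood at 66.9, 63.4 and 68.0 CPM and also overlapped (0.019 ± 0.0461 SE, adjusted p = 0.822). The calls of SRSF7 and HNRNPA3 depended on single libraries: SRSF7 was not called without siCtrl senescent replicate 1 or siNTRK2 replicate 2 (adjusted p = 0.106 and 0.109), and HNRNPA3 not without siCtrl senescent replicate 1 or 3 or siNTRK2 replicate 3 (0.073, 0.068 and 0.161). Other genes moved beside them: 8 of 12 proliferation genes rose and 2 fell (MKI67 1.71, TOP2A 1.11), their summed level going from 226 to 229 CPM up to 234 to 250 CPM, while 6 of 9 fibroblast markers rose (COL3A1 0.52), LMNB1 rose (0.62) and CDKN1A fell (-0.50). Their part in the members' change was not tested.

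**Figure D3:**
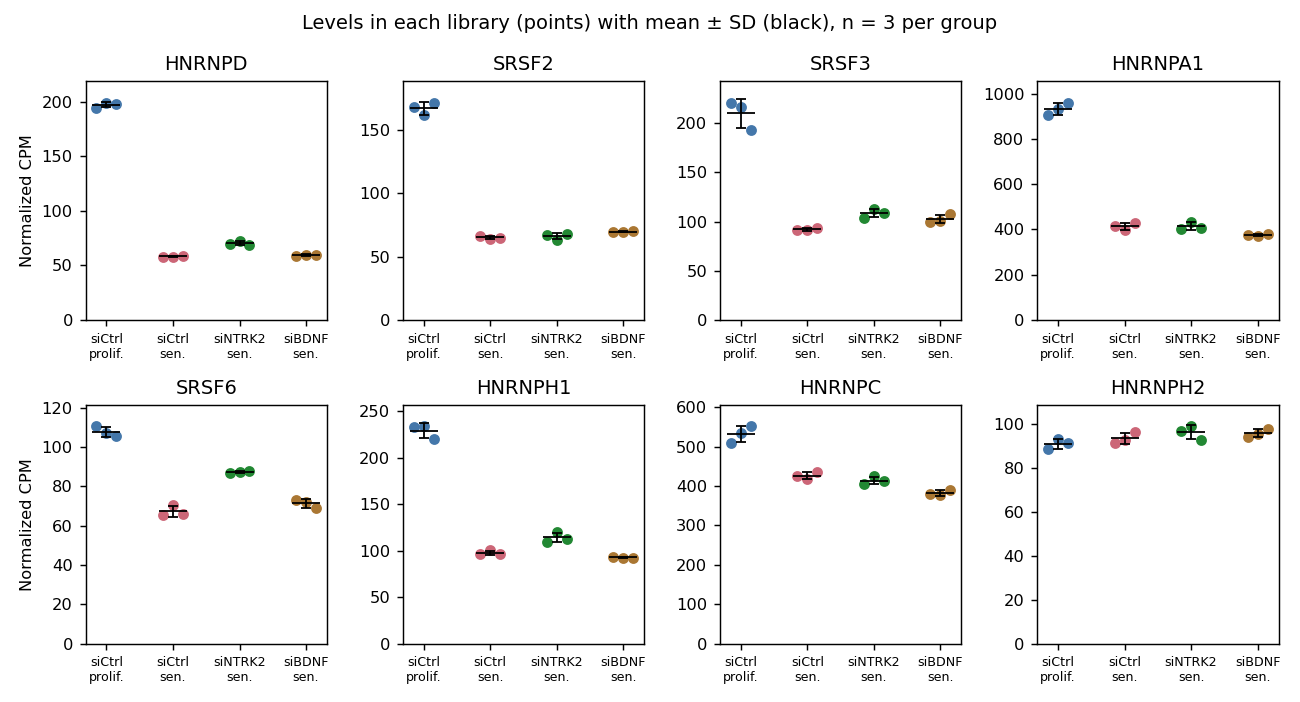
Normalized CPM (y axes from 0) of 8 members in each library (points), with the mean ± SD of the 3 libraries of each group in black. HNRNPD, SRSF2, SRSF3 and HNRNPA1 stand lower in all senescent groups than in proliferating cells, SRSF6 and HNRNPH1 stand higher with siNTRK2 than with siCtrl in senescence, HNRNPC stands lowest with siBDNF, and HNRNPH2 is level at 88.7 to 99.1 CPM throughout.

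Silencing BDNF asks the same of the ligand, against the same siCtrl senescent libraries. With siBDNF, 4 members rose and 2 fell, where 10.3% of all genes tested rose and 10.2% fell, so the share of members called was near the background. The median over the 32 members was 0.029, beside 0.004 for all genes, within a range of -0.17 to 0.19. None was past the study's threshold (0.609% of all genes) or called against a minimum fold change of 1.2 (2.33% of all genes). These directions moved with the scaling: with library totals alone 11 members rose and none fell, and with an offset fitted to transcript length and GC content, an alternative added after the data were seen, none rose and 7 fell. Leaving out siCtrl senescent replicate 1, siBDNF replicate 2 or siBDNF replicate 3 left 2 calls each. In the same comparison 5 of 9 fibroblast markers fell and 2 rose (median -0.14), and 1 of 12 proliferation genes rose and none fell (median -0.002), and their part in the result was not tested.

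SRSF10 (SRp38), which represses splicing when dephosphorylated, stood at 40.7, 41.0 and 41.2 CPM with siCtrl and 45.8, 47.5 and 46.7 CPM with siBDNF. The groups were apart (0.19 ± 0.0556 SE, adjusted p = 0.0165), but the offset turned the value to -0.042, and the call was lost without siCtrl senescent replicate 1, siBDNF replicate 2 or siBDNF replicate 3 (adjusted p = 0.0593, 0.0859 and 0.0509). HNRNPA3 measured 143, 144 and 143 CPM with siCtrl and 156, 164 and 165 CPM with siBDNF. Its siBDNF libraries were all higher (0.17 ± 0.0444 SE, adjusted p = 0.00579), and with the offset the value was -0.004. SRSF3 stood at 99.9, 100.4 and 107 CPM with siBDNF. These lay above the siCtrl senescent libraries (0.16 ± 0.0512 SE, adjusted p = 0.0313), a call lost without any 1 of the siCtrl senescent replicates or without siBDNF replicate 2 or 3 (adjusted p = 0.06 to 0.175). HNRNPU (SAF-A), a nuclear scaffold protein, measured 237, 249 and 244 CPM with siCtrl and 265, 270.4 and 269 CPM with siBDNF. The groups did not overlap (0.14 ± 0.0406 SE, adjusted p = 0.0148), the call was lost without siCtrl senescent replicate 1 or siBDNF replicate 2 or 3 (adjusted p = 0.089, 0.0763 and 0.0505), and with the offset the gene was called lower (-0.15, adjusted p = 0.00828).

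In the other direction, HNRNPC stood at 426, 417 and 436 CPM with siCtrl and 379.7, 376 and 389.9 CPM with siBDNF. All siBDNF libraries were lower (-0.16 ± 0.0419 SE, adjusted p = 0.00763), and with library totals the value was -0.10 and not called (adjusted p = 0.0511). HNRNPA1 measured 377, 372 and 382 CPM with siBDNF. Its groups were also apart (-0.13 ± 0.0437 SE, adjusted p = 0.0313), with a call lost under library totals (-0.075, adjusted p = 0.186), without the filter on low counts (0.0553), without siCtrl senescent replicate 1 or 3 (0.0864 and 0.17) and without each siBDNF replicate (0.0862, 0.104 and 0.0596). SRSF1 measured 105, 99.7 and 105 CPM, which overlapped with siCtrl, and was not called (0.087 ± 0.0452 SE, adjusted p = 0.199); library totals made it a call (0.14, adjusted p = 0.0213) and the offset turned its sign (-0.055). The ratio of HNRNPA1 to SRSF1 CPM was 3.59 to 3.73 with siBDNF and 3.79 to 4.12 with siNTRK2, each range below the 4.14 to 4.33 of the siCtrl senescent libraries.

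Set directly against siBDNF, 11 members were higher with siNTRK2 and none was lower, where 8.84% of all genes tested were higher and 7.86% lower. DESeq2 called 14 higher and none lower, and all 15 members with an unadjusted p under 0.05 were higher. The median over the 32 members was 0.097, beside -0.004 for all genes, and none passed the study's threshold (1.16% of all genes) or the minimum fold change of 1.2 (3.05% of all genes). HNRNPH1 showed the largest difference, with 109.7, 119.8 and 113 CPM with siNTRK2 and 93.3, 92.6 and 92.6 CPM with siBDNF. The siBDNF libraries were nearly alike and all lower (0.30 ± 0.0456 SE, adjusted p = 3.47e-05). SRSF6 held 86.7 to 87.9 CPM with siNTRK2 and 73.0, 71.9 and 68.9 CPM with siBDNF. The groups were separate (0.29 ± 0.0469 SE, adjusted p = 5.94e-05). HNRNPD, with 58.8, 60.0 and 59.8 CPM with siBDNF, also differed (0.24 ± 0.0443 SE, adjusted p = 0.000305). HNRNPA1L2 measured 42.1, 52.0 and 44.0 CPM with siNTRK2 and 41.6, 37.6 and 40.0 CPM with siBDNF. These groups came close to touching (0.21 ± 0.0656 SE, adjusted p = 0.0262), and the call was lost without siNTRK2 replicate 2 (0.12, adjusted p = 0.213), siBDNF replicate 2 (adjusted p = 0.123) or siBDNF replicate 3 (adjusted p = 0.0709).

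SRSF5, HNRNPA2B1, HNRNPDL, HNRNPR, HNRNPM, HNRNPA1 and HNRNPL made up the rest of the 11, with log2 differences of 0.12 to 0.21, whereas SRSF1 did not differ detectably (0.025 ± 0.0452 SE, adjusted p = 0.768). The count was 4 with library totals and 22 with the length and GC offset, all higher with siNTRK2 in both cases, and 5 without siNTRK2 replicate 2 or without siBDNF replicate 3. HNRNPH1, SRSF6, HNRNPD and HNRNPA2B1 were called with any 1 of the 6 libraries left out, HNRNPR was lost without siBDNF replicate 2 (adjusted p = 0.0524), and SRSF5 and HNRNPDL were lost without siNTRK2 replicate 2 (0.11 and 0.0747) or siBDNF replicate 3 (0.131 and 0.0914). HNRNPM, HNRNPA1 and HNRNPL were each lost without 4, 4 and 5 of the libraries in turn, at adjusted p = 0.0585 to 0.142, 0.071 to 0.164 and 0.0755 to 0.132.

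Marker lists moved beside the members here too, and their part in the difference was not tested. With siNTRK2 against siBDNF, 8 of 12 proliferation genes were higher and 2 lower (median 0.42, TOP2A 0.98 and PCNA -0.30), with summed levels of 234 to 250 and 227 to 233.0 CPM. Of 9 fibroblast markers, 7 were higher and none lower (median 0.29, LUM 0.69 and DCN 0.57), with sums of 42720 to 45390 and 37530 to 39540 CPM.

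Both silenced groups stayed well below the proliferating cells. Against these, 29 of 32 members were lower with siNTRK2 and none was higher, where 26.8% of all genes were lower and 28.2% higher, and 30 were lower with siBDNF and none higher, where 28.4% were lower and 30.2% higher. Past the study's threshold were 8 members with siNTRK2 (4.55% of all genes) and 10 with siBDNF (5.45%). The member medians were -0.60 with siNTRK2 and -0.72 with siBDNF, beside the -0.78 of siCtrl given above, and the 3 comparisons share the same proliferating libraries. SRSF5, an SR protein lower in siCtrl senescent cells by 0.36 on the log2 scale, was the SRSF gene no longer called with siNTRK2 (-0.11, adjusted p = 0.11). For SRSF6 the value was -0.30 with siNTRK2 and -0.60 with siBDNF, and for HNRNPD -1.48 and -1.73.

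The annotation holds at least 1 transcript marked for nonsense-mediated decay for 25 of the 34 members (73.5%), against 7614 of 19404 protein-coding genes (39.2%), and a retained intron for 25 members (73.5%), against 49.3%. Gene counts add all transcripts of a gene, so productive and unproductive forms could not be separated here. Of the 32 members tested, 24 have such a decay transcript. All 14 members that rose with siNTRK2, and the 4 that rose and 2 that fell with siBDNF, were among these 24. None was among the other 8. The shares called among all genes with and without such a transcript were not counted here. Between the siRNAs, 10 of the 24 and 1 of the 8 (HNRNPA1L2) were called higher with siNTRK2, and no test compared members with and without a decay transcript. Their median log2 fold changes with siNTRK2 were 0.17 with and 0.078 without a decay transcript, and in senescence -0.80 and -0.73, with 24 of 24 and 6 of 8 lower. The 8 without one include HNRNPH2, HNRNPA0 and HNRNPA1L2, whose annotation has 1 transcript each. They also include HNRNPA1L3, and the counts of HNRNPA1L2 and HNRNPA1L3 are uncertain, as said above.

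The genes around the members were read as lists, and their counts stand beside the shares called over all genes tested. Of all genes, 29.8% rose and 28.3% fell in senescence, 11.1% and 10.0% with siNTRK2, and 10.3% and 10.2% with siBDNF. SR-related proteins, which carry a domain rich in arginine and serine beside the SRSF family, fell for 10 of 17 and rose for 1 (SRRM2) in senescence (median -0.23). TRA2B, a splicing activator, fell furthest in that list (-1.32), followed by LUC7L (-0.84), PNN (-0.63) and RBM39 (-0.40). With siNTRK2, 13 of the 17 rose and none fell (median 0.27), led by PPIG (0.52), PNN (0.48), NKTR (0.39) and LUC7L (0.38), and with siBDNF, against the same controls, 8 rose and none fell (median 0.15), led by PPIG (0.46), SRRM2 (0.36), NKTR (0.36) and SREK1 (0.34). Among 12 SR protein kinases and nuclear importers, 3 rose and 5 fell in senescence. CLK2, which phosphorylates SR proteins in the nucleus, fell by 0.72 and rose with siNTRK2 (0.52), and PRPF4B, a kinase of the spliceosome, fell by 0.66 and rose with siNTRK2 (0.50) and with siBDNF (0.37). SRPK1, the main cytoplasmic SR protein kinase, was not called in senescence (0.024) and rose with siBDNF (0.31), which called 3 of the 12 higher and 1 lower, where siNTRK2 called 3 higher and none lower.

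The hnRNP proteins that go by other symbols fell throughout in senescence, 11 of 11 tested (median -0.49; TAF15 was not matched). Among them RBMX (-1.24) and EWSR1 (-1.04) fell past the study's size, and FUBP1 fell by 0.94. In this list 2 of 11 rose with siNTRK2 (FUBP1 0.30, EWSR1 0.18), and 3 fell with siBDNF (among them CIRBP -0.17 and PCBP2 -0.12). Core spliceosome genes fell for 30 of 41 and rose for 2 in senescence (median -0.43), SNRPA (-1.10) and LSM6 (-1.08) furthest. With siNTRK2, 4 of the 41 rose and 2 fell, shares not above those of all genes (11.1% and 10.0%). With siBDNF, none rose and 6 fell, where 10.3% of all genes rose and 10.2% fell. Nonsense-mediated decay factors did otherwise: 5 of 10 rose and 2 fell in senescence, and with both siRNAs SMG1 (0.52 with siNTRK2, 0.75 with siBDNF), UPF3B (0.53 and 0.48) and UPF2 (0.46 and 0.34) rose, in comparisons that share their controls.

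Of 24 other regulators of alternative splicing, 5 rose and 15 fell in senescence (median -0.33), among them KHDRBS1 (-1.08) and QKI (-1.05). The largest fitted rises in that list belonged to genes near the detection floor, and no fold is given for them. RBFOX1 and ESRP1 had 0 counts in each proliferating library, against 8 to 36 and 5 to 15 counts in the siCtrl senescent ones, and RBFOX3 had 0 to 2 against 8 to 18. NOVA2 had 4 to 6 against 6 to 26 counts. The remaining rise was that of RBM24 (0.60), with means of 16.7 CPM in proliferating and 25.4 CPM in siCtrl senescent cells. With siNTRK2, 5 of the 24 rose, among them RBM5 (0.33) and QKI (0.32). Another 2 fell, PTBP3 (-0.26) and NOVA2, which was near the detection floor. With siBDNF, 5 rose and 1 fell, ELAVL1 (-0.23). PTBP2, the neuronal form of the polypyrimidine tract binding protein, and PTBP3 were among the rises with siBDNF (0.46 and 0.31).

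**Figure D4:**
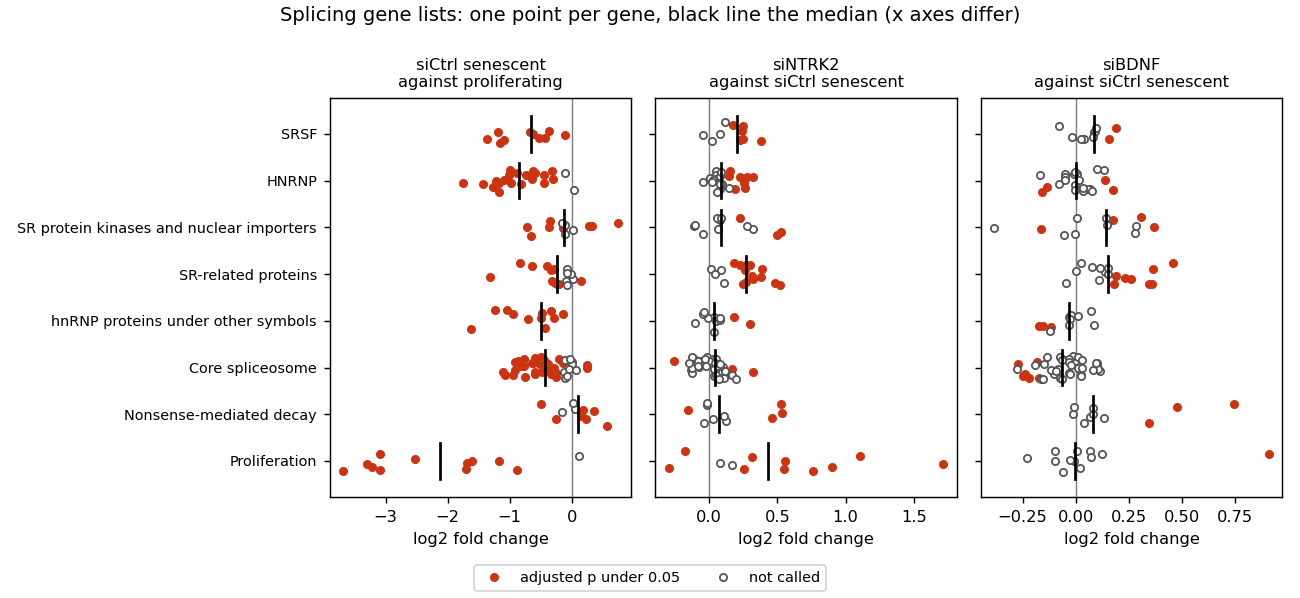
Log2 fold change (x axes, which differ between panels) of each tested gene of the SRSF and HNRNP families and of 6 related lists (rows) in senescent against proliferating siCtrl cells and in siNTRK2 and siBDNF against siCtrl senescent cells, with filled points for an adjusted p under 0.05 and a black line at each median. In senescence the medians of all lists but nonsense-mediated decay lie below 0, with HNRNP at -0.85 and SRSF at -0.65 lower than the other splicing lists, and with siNTRK2 the SR-related and SRSF medians are the highest of the splicing lists.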

How the data were processed

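Polyadenylated RNA of 12 WI-38 libraries was sequenced as paired reads from stranded libraries. The deposited values are raw counts per Ensembl gene, without normalization, which the authors made with bcl2fastq 2.20.0.422, Cutadapt, STAR 2.4.0j (hg19) and featureCounts 1.6.4; the strand setting and the handling of reads that match several genes are not given in the sources used here. Symbols were found for 55538 of 57773 identifiers, and 41004 genes had a count. Totals ran from 31567912 to 72328151 per library, and 3 counts, taken as the detection floor, equal 0.0427 to 0.0916 normalized CPM, counting error only.

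Groups came from the sample titles. In R 4.3.3, edgeR 4.0.16 (TMM, filterByExpr, quasi-likelihood F test, 1 term per group, all 12 libraries) was fitted to 21518 genes, with Benjamini-Hochberg adjustment over all of them and calls at an adjusted p under 0.05. Beside it stands the threshold of the study, which also asks for an absolute log2 fold change over 1. SE is the absolute log2 fold change over the square root of F. CPM use TMM effective library sizes. Libraries of the same group differed by more than counting noise (mean chi-square of 3.94 to 13.7 per gene over 12 pairs). The model was checked on simulated counts.

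Per-library values are given for the 6 largest rises and falls in senescence, the 4 largest rises and falls with each siRNA and between the siRNAs, SRSF1 and HNRNPA1; up to 4 called genes are named per related list. The members and lists were chosen with earlier results of these data known. Alternatives were DESeq2 1.42.0, median-of-ratios size factors, library totals, no low-count filter, only the groups compared, a replicate block, a minimum fold change of 1.2, each library left out in turn, and, added after seeing the data, an offset fitted to transcript length and GC content (splines with 4 degrees of freedom). Transcript classes and overlaps came from a GENCODE annotation on GRCh37, promoter windows from RefSeq on GRCh38.p14, read for sequence only.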

Additional observations from a re-analysis of the deposited data

Results flagged for a closer look

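The 11 members whose response to siNTRK2 differed from their response to siBDNF in a direct test of that difference (edgeR quasi-likelihood test, Benjamini-Hochberg adjusted p over all genes, n = 3 libraries per group) are given here, each with its log2 fold change of siNTRK2 minus siBDNF. All 11 were higher with siNTRK2, and 8.84% of all genes tested were called in that direction. Proliferation genes (8 of 12 higher, 2 lower) and fibroblast markers (7 of 9 higher) moved in the same comparison, and their part in it was not tested. The HNRNP genes were HNRNPH1 with 0.298 (adjusted p = 3.47e-05), HNRNPD with 0.243 (0.000305), HNRNPA1L2 with 0.213 (0.0262), HNRNPA2B1 with 0.201 (0.00148), HNRNPDL with 0.185 (0.0131), HNRNPR with 0.166 (0.0105), HNRNPM with 0.138 (0.0269), HNRNPA1 with 0.136 (0.0325) and HNRNPL with 0.125 (0.0414). The SRSF genes were SRSF6 with 0.294 (5.94e-05) and SRSF5 with 0.208 (0.0148). Only HNRNPH1, HNRNPD, HNRNPA2B1 and SRSF6 stayed called with any 1 of the 6 libraries compared left out, and library totals left 4 calls. Against siCtrl, HNRNPH1 was at 0.223 with siNTRK2 and -0.076 (not called) with siBDNF. HNRNPA1L2 was at 0.046 and -0.167, neither called, whereas SRSF6 was at 0.377 and 0.083, the latter not called. In groups of 3 libraries no single library was tested as standing apart.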

How the results depend on the processing

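Of 351 alternative values of 27 named log2 fold changes, 312 kept their direction and their side of the threshold, 29 were no longer called, 2 became called and 8 changed sign. With median-of-ratios size factors, DESeq2 and the fit of only the groups compared, all 27 kept both. The changes of sign were HNRNPA1 with siNTRK2 (-0.024 without siCtrl senescent replicate 2, -0.033 without siNTRK2 replicate 2, up to 0.031 without other libraries, -0.002 with the length and GC offset), SRSF10 (-0.042), HNRNPA3 (-0.004), HNRNPU (-0.147) and SRSF1 (-0.055) with siBDNF under the offset, and SRSF1 between the siRNAs (-0.013 with library totals). Members past the study's threshold numbered 12 in senescence, 8 with siNTRK2 and 10 with siBDNF against proliferating cells, and 0 with either siRNA against siCtrl or between the siRNAs, where a minimum fold change of 1.2 also left 0. With library totals, 11 members were called with siBDNF (all higher) and 4 between the siRNAs, against 6 and 11, and the offset gave 7 (all lower) and 22. The offset moved the median of all genes in senescence to -0.122 and that of the members to -0.826. Leaving out 1 library of the groups compared gave 29 to 31 calls in senescence, 12 to 14 with siNTRK2, 2 to 5 with siBDNF and 5 to 10 between the siRNAs; leaving out 1 of the other libraries, which share the estimate of the spread, gave 29 to 31, 14, 6 to 8 and 10 to 13. Summed SRSF CPM with library totals were 1130 in proliferating, 659.8 in siCtrl senescent and 716.9 in siBDNF cells (667.1 in siCtrl senescent cells with median-of-ratios size factors), and summed HNRNP CPM 5778 in proliferating and 3551 in siBDNF cells. The replicate block, on numbers that no source ties to a shared experiment (same-number correlations -0.0396 to 0.027, 2 of 12 libraries closest to their own number), gave 30, 14, 6 and 14 calls in senescence, with siNTRK2, with siBDNF and between the siRNAs, and changed no named call. The cause of these shifts was not tested. Depth limits SRSF12 and HNRNPCL1, at 0 to 14 counts per library.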
